A study of Homo sapiens with 24 samples.

Results

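HPNE cells that received extracellular vesicles from PANC-1 cells were compared with HPNE cells that received residual medium, with 3 RNA-seq libraries in each group out of 24 in the series. The comparison covered 11503 of the 48162 genes in the deposited tables, namely those with a mean of at least 1 FPKM over the 12 HPNE libraries. FPKM is the number of reads of a gene scaled to its length and to the library total. The gene nearest above that level was CTD-2620I22.7, with a mean of 1.00 FPKM, and the nearest below it was ZNF583, with 0.9998 FPKM.

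HPNE is hTERT-HPNE, a human pancreas cell line immortalised with the telomerase gene, and PANC-1 is a pancreatic carcinoma line. Every HPNE group in the series carries that transgene and was grown in a keratinocyte medium without serum. The vesicle group was given 1e10 PANC-1 vesicles per well for 24 h. The residual medium group, the negative control, was given for the same 24 h culture medium kept from the vesicle preparation, and the labels do not say from which cells it came. A second control, called untreated, was given fresh serum-free medium. The third treatment of HPNE, vesicles from PPCL-68 cells, entered the fit only to estimate spread. The same PANC-1 comparison was made in HPDE, an immortalised pancreatic duct line (HPDE-H6c7). The design text calls the 3 libraries of a group biological triplicates. The question of the design is what cancer cell vesicles do to the expression of non-malignant pancreas lines.

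Extracellular vesicles are membrane-bound particles that cells release and that carry protein, lipid and RNA into other cells. The integrated stress response is a program that starts when amino acids run short or when misfolded protein builds up in the endoplasmic reticulum (ER). Sensor kinases then slow translation in general while the transcription factor ATF4 is made, and ATF4 with its partner CHOP (the product of DDIT3) induces genes for amino acid synthesis and uptake. The unfolded protein response of the ER has further branches, through XBP1 and ATF6, that raise ER chaperones. Cells that divide express mitosis and DNA replication genes in waves, so that bulk RNA levels of these genes follow the share of dividing cells. In bulk RNA, fewer cells of a state and less RNA per cell cannot be told apart.

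The tables allowed the reads of each library to be recovered. The PANC-1 vesicle libraries held 35843204 to 46490312 reads on genes and the residual medium libraries held 30410377 to 42939612. Every HPNE group had 1 library at a distance from its other pair, and residual medium replicate 3 was the most distant. Its root mean square log2 distance was 0.455 and 0.460 from residual medium replicates 1 and 2, which were 0.138 apart. Its distances from the 3 vesicle libraries were shorter, at 0.394 to 0.401, and those from the untreated libraries were 0.4545 to 0.555. PANC-1 vesicle replicate 1 was 0.311 and 0.360 from the other two, which were 0.164 apart. The 10 most abundant genes took 18.1% of the reads in residual medium replicate 3 and 14.5 to 14.7% in replicates 1 and 2, beside 16.4 to 18.0% in the vesicle libraries.

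The cell line was checked against its markers. TERT, VIM, NES, CDH2 and THY1 were above 1 FPKM in all 12 HPNE libraries, and their summed level was 443 to 502 FPKM with vesicles and 1088, 1082 and 552 FPKM with residual medium. Of 13 epithelial markers only KRT8 and KRT18 passed the level rule, neither differed in the test, and the summed level of the 13 was 6.01 to 9.03 FPKM with vesicles and 4.77 to 8.998 FPKM with residual medium. Markers of acinar and endocrine cells summed to at most 0.0488 FPKM in any of these 6 libraries, and markers of blood and endothelial cells to at most 0.427 FPKM.

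A total of 2784 of the 11503 genes (24.2%) differed between PANC-1 vesicles and residual medium, 1599 (13.9%) higher and 1185 (10.3%) lower. The test was limma on log2(FPKM + 1) with Benjamini-Hochberg adjustment at 0.05, and all differences below are on that scale, where the median gene stood at 0.02. Differences were small in the main: 322 genes (2.8%) were called and differed by at least 1, and 47.9% of the called genes differed by less than 0.5. The 2 groups did not overlap for 4387 genes (38.1%). Without residual medium replicate 3 the count was 4443 (38.6%), of which 1985 (17.3%) were higher and 2458 (21.4%) lower, so the balance turned from more rises to more falls. Of the 2784 genes, 2635 were also called without that library, all in the same direction, which is 94.6% of the first set and 59.3% of the second. The count was 1344 and 1386 without residual medium replicates 1 and 2 and 1670 without PANC-1 vesicle replicate 2. When each FPKM value was divided by a median-of-ratios size factor, 3190 genes (27.7%) differed, 1341 (11.7%) higher and 1849 (16.1%) lower, and the median gene stood at -0.03. Against untreated cells, 2430 genes (21.1%) differed with PANC-1 vesicles, 1105 (9.61%) higher and 1325 (11.5%) lower. Residual medium differed from untreated cells at 5052 genes (43.9%), 2153 (18.7%) higher and 2899 (25.2%) lower. That balance turned with size factors, to 3328 higher and 2083 lower, and was 3029 higher and 3020 lower without residual medium replicate 3, while 3168 and 3141 genes in all differed without residual medium replicates 1 and 2. The vesicle comparisons share the vesicle libraries and the residual medium comparisons share that control, so their values are set side by side below and not counted as independent.

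**Figure D1:**
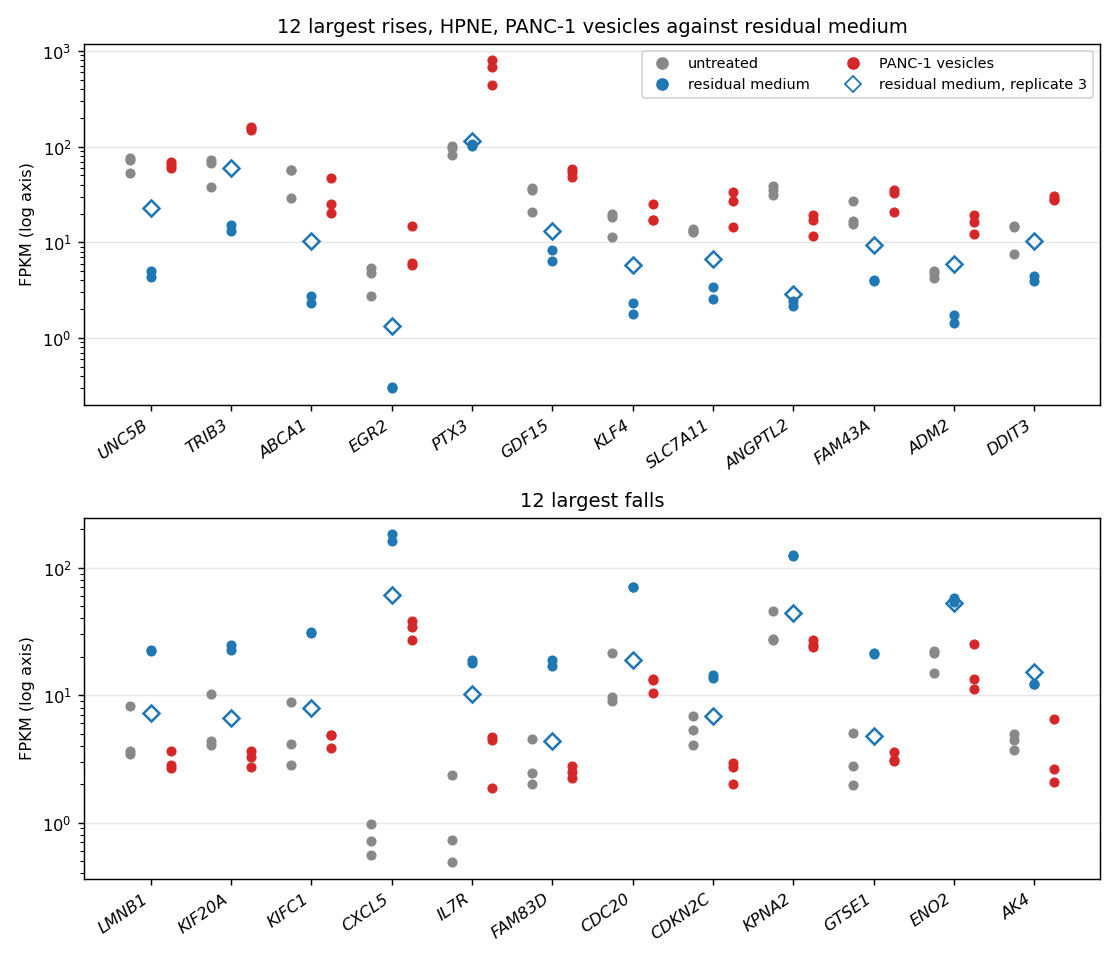
FPKM on a log axis in the single libraries of 3 HPNE groups for the 12 largest rises (top) and 12 largest falls (bottom) with PANC-1 vesicles against residual medium among protein-coding genes that were called and whose groups did not overlap; each point is 1 library. The open diamond is residual medium replicate 3, which for UNC5B lay at 23.0 FPKM, between 4.30 and 5.02 FPKM in the other two and 59.9 to 68.4 FPKM with vesicles.

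Genes of the integrated stress response were higher with PANC-1 vesicles. Of 15 tested regulators and effectors of ATF4 and CHOP, 11 rose and 0 fell, with a median log2 difference of 1.51, beside the 13.9% and 10.3% of all genes above. Against untreated cells 9 of the 15 were higher and 0 lower (median 1.22), and residual medium had 1 higher and 6 lower. TRIB3 (chr20:361261-378203, hg19), a pseudokinase induced by ATF4 and CHOP, had 151, 156 and 159 FPKM with vesicles, 13.2, 15.3 and 59.4 FPKM with residual medium, and 73.2, 67.6 and 37.7 FPKM in untreated cells. Each vesicle library was thus above every control library, while residual medium replicate 3 was within the untreated range. The difference from residual medium was 2.70 (SE 0.45, adjusted p = 0.00247), and 3.36 without residual medium replicate 3 (adjusted p = 3.04e-05). Against untreated cells it was 1.43 (adjusted p = 0.0439).

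DDIT3, which encodes CHOP, had 30.3, 28.5 and 27.7 FPKM with vesicles and 3.90, 4.43 and 10.3 FPKM with residual medium. Its difference was 2.15 (SE 0.34, adjusted p = 0.00193), and it was 1.22 against untreated cells (adjusted p = 0.0271), whose libraries had 14.3, 14.8 and 7.62 FPKM. ATF3, a stress-induced repressor, had 10.03, 14.2 and 14.8 FPKM against 2.76, 2.77 and 5.25 FPKM (difference 1.63, adjusted p = 0.000456). These groups did not overlap for either gene. SESN2, a leucine sensor that restrains mTOR signalling, rose by 2.15, and GDF15, a secreted stress cytokine, by 2.46. Against untreated cells SESN2 differed by 1.45 (adjusted p = 0.00205), while GDF15 did not pass (0.81, adjusted p = 0.0557). PPP1R15A, which encodes a phosphatase subunit that ends the response, had 144, 214 and 237 FPKM with vesicles, 50.7, 54.6 and 61.1 FPKM with residual medium and 38.6 to 49.6 FPKM in untreated cells, so that both controls lay below all vesicle libraries (differences 1.79 and 2.07). ATF4 itself had 266, 244 and 228 FPKM against 125, 138 and 231 FPKM, groups that overlapped through residual medium replicate 3. Its difference of 0.63 barely passed the test (adjusted p = 0.0444), was 0.90 without that library (adjusted p = 0.000873), and did not pass under 9 of the 14 alternatives, among them size factors (0.57, adjusted p = 0.0653) and leaving out any of the other 5 libraries. It was 0.05 against untreated cells (adjusted p = 0.874).

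The C/EBP-ATF response element, to which ATF4 binds with a C/EBP partner, was looked for in RefSeq promoter windows (GRCh38.p14, 250 bases before to 50 after a gene's start) by the letters TGATGNAA on both strands, where N is any base. It occurs in 3.67% of the 27305 windows in the table. Only 37 of the 64 tested genes of the ATF4, transporter, amino acid synthesis and tRNA synthetase lists had a window, so a share over these lists is void. The following upstream stretches are from genes that rose and had a match there, and they do not describe the other genes that rose. Capitals mark the match, read along the gene's own strand, and TTGCATCA is the element on the opposite strand.
ATF3: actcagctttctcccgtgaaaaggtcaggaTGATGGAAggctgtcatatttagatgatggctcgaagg
CHAC1: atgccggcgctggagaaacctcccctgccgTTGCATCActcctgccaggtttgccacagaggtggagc
ASNS: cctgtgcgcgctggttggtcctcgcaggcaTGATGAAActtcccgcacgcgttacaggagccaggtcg
GOT1: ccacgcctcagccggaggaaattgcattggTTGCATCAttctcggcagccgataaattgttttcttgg
They lie at chr1:212565186-212565253 (plus strand), chr15:40953232-40953299 (plus), chr7:97872439-97872506 (minus) and chr10:99430785-99430852 (minus), and the matches begin 191, 209, 68 and 198 bases upstream of the start. A match of letters is a description and not evidence of binding in these cells.

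Amino acid supply followed the same direction. Among 13 transporters 8 rose and 0 fell (median 0.99), and among 16 genes of amino acid and one-carbon synthesis 12 rose and 2 fell (median 0.76). The second count was 6 or 7 rises when PANC-1 vesicle replicate 2 (7) or 3 (6) or residual medium replicate 1 (6) or 2 (7) was left out, and 5 with only the 6 libraries in the fit. Against untreated cells 8 of the 13 transporters and 7 of the 16 synthesis genes were higher, and 0 and 1 lower. SLC7A11, the cystine importer that supplies glutathione synthesis, had 14.6, 27.4 and 33.8 FPKM with vesicles against 2.56, 3.42 and 6.72 FPKM, groups that did not overlap (difference 2.33, SE 0.32, adjusted p = 0.000881). Untreated cells had 13.9, 13.0 and 12.8 FPKM of SLC7A11, and the vesicle difference from them did not pass (0.81, adjusted p = 0.0897). Residual medium differed from untreated cells by -1.52 (adjusted p = 0.00392). The partner chain of SLC7A11, SLC3A2, rose by 1.39, and SLC6A9, a glycine transporter, by 1.88. ASNS, asparagine synthetase, had 113, 150 and 149 FPKM against 28.8, 35.8 and 97.7 FPKM, with residual medium replicate 3 near the vesicle libraries. Its difference was 1.52 (adjusted p = 0.00957), 2.05 without that library (adjusted p = 2.73e-05), and it did not pass with only the 6 libraries in the fit (adjusted p = 0.0589).

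GOT1, aspartate aminotransferase, had 38.3, 67.6 and 71.8 FPKM with vesicles against 19.4, 21.7 and 26.0 FPKM and rose by 1.32 (adjusted p = 0.00141). MTHFD2 of mitochondrial one-carbon metabolism rose by 1.21, and CBS of the transsulfuration pathway by 1.09. In contrast, ALDH18A1, which makes the precursor of proline, had 22.5, 18.6 and 17.5 FPKM against 38.6, 36.7 and 40.5 FPKM and fell by 0.96 (adjusted p = 0.000204). Of 20 cytosolic aminoacyl-tRNA synthetases, which charge tRNAs with amino acids, 11 rose and 1 fell (median 0.36), and 11 rose and 5 fell without residual medium replicate 3. YARS, SARS, CARS and WARS rose by 0.77 to 0.89.

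ER folding genes did not follow this pattern. Of 27 tested chaperones, degradation and translocation genes of the ER, 2 rose and 6 fell (median -0.28), and 13 fell without residual medium replicate 3. Leaving out PANC-1 vesicle replicate 2 or 3 or residual medium replicate 2 gave 3 falls, and leaving out residual medium replicate 1 gave 2. Of all genes, 13.9% rose and 10.3% fell. Against untreated cells 2 of the 27 were higher and 0 lower with vesicles (median 0.17). Residual medium had 18 of the 27 higher than untreated cells and 0 lower. HSPA5, the main ER chaperone, had 236, 316 and 323 FPKM with vesicles against 313, 295 and 241 FPKM, groups that overlapped (difference 0.04, SE 0.16, adjusted p = 0.883). The 2 that rose were HERPUD1 (0.60), an ER degradation factor, and SEL1L (0.33), an adaptor of the same machinery, and SEC61B of the translocation channel fell by 0.54. Neither rise passed without residual medium replicate 1 or 2 or with only the 6 libraries in the fit, and 1 of them passed without PANC-1 vesicle replicate 2 or 3. Of 8 ER stress sensors and regulators, ERN1, the kinase and RNase that splices XBP1, had 9.50, 14.5 and 17.4 FPKM against 3.99, 4.28 and 4.16 FPKM (difference 1.49, adjusted p = 0.00034), and 2.99 to 3.24 FPKM in untreated cells. XBP1 rose by 0.62 and EIF2AK1, a heme-regulated kinase, fell by 0.27 (adjusted p = 0.044, lost when PANC-1 vesicle replicate 2 or 3 or residual medium replicate 1 or 2 was left out). XBP1 was measured as a gene, with no reading of its splice forms.

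Cytosolic chaperones were lower. Of 14 heat shock genes, 7 fell and 1 rose (median -0.45), with 12 falls without residual medium replicate 3, 3 without residual medium replicate 1 or 2 and 5 without PANC-1 vesicle replicate 2. HSPA8, the constitutive cytosolic HSP70, had 309, 272 and 242 FPKM with vesicles, 775, 765 and 430 FPKM with residual medium and 503 to 542 FPKM in untreated cells. The vesicle libraries were below both controls (difference -1.21, adjusted p = 0.00234, and -0.92 against untreated cells, adjusted p = 0.00939). HSPA9, the mitochondrial HSP70, was the member that rose, by 0.71. HSPA1A fell by 1.06, but its reads may have been divided with those of the near-identical HSPA1B, so its value is uncertain.

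**Figure D2:**
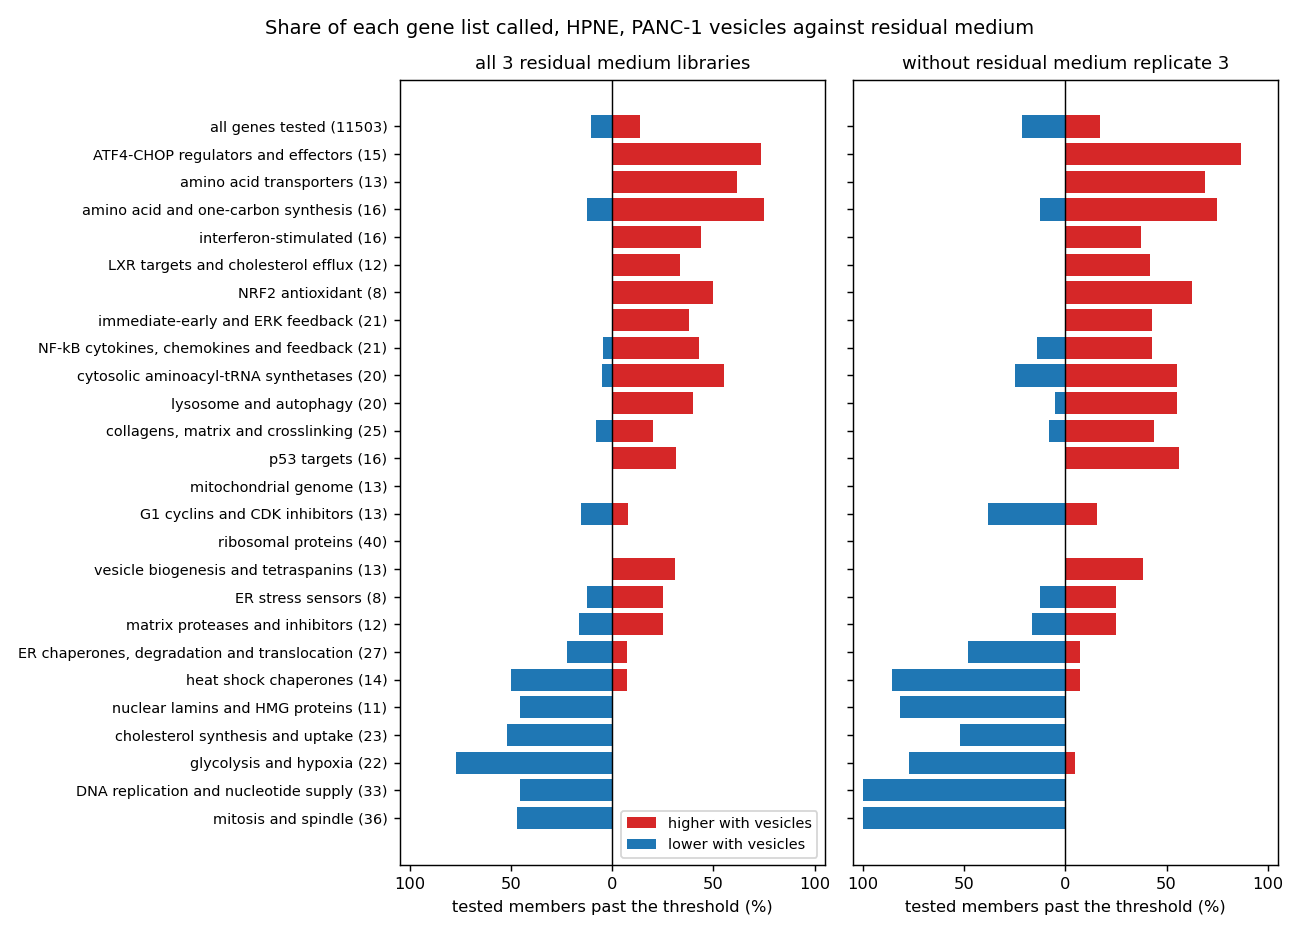
Percentage of tested members (number in parentheses) of each gene list that were higher (red, right) or lower (blue, left) with PANC-1 vesicles than with residual medium, with all libraries and without residual medium replicate 3. Lowered shares of the mitosis and DNA replication lists went from 17 of 36 and 15 of 33 to 36 of 36 and 33 of 33, while the glycolysis and hypoxia list stayed at 17 of 22.

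Mitosis and DNA replication genes were lower with PANC-1 vesicles than with residual medium, and the number that passed the test turned on residual medium replicate 3. Of 36 mitosis and spindle genes 17 fell and 0 rose (median -1.27; all 36 had an unadjusted p under 0.05), and of 33 replication and nucleotide supply genes 15 fell and 0 rose (median -0.88). Without that library all 36 and all 33 fell, with medians of -1.84 and -1.30. Without residual medium replicate 1 or 2 the counts were 1 and 2, and without PANC-1 vesicle replicate 1, 2 or 3 they were 3, 6 and 3 mitosis genes and 5 replication genes each time. With only the 6 libraries in the fit 2 and 3 fell, and with size factors 24 and 19.

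KIF20A (chr5:137514408-137523404, hg19), a kinesin needed for cytokinesis, had 3.67, 3.25 and 2.71 FPKM with vesicles, 22.5, 24.9 and 6.68 FPKM with residual medium and 4.07, 4.35 and 10.2 FPKM in untreated cells. Residual medium replicates 1 and 2 stood above every other library shown here, and the vesicle libraries stood below all 6 control libraries. The difference was -1.996 (SE 0.42, adjusted p = 0.00741), and -0.68 against untreated cells (adjusted p = 0.261). CDC20, an activator of the anaphase-promoting complex, had 10.4, 13.1 and 13.5 FPKM against 70.7, 70.3 and 19.0 FPKM (difference -1.82, adjusted p = 0.018). It was lost without PANC-1 vesicle replicate 1 or residual medium replicate 1 or 2 and was at -0.01 against untreated cells. LMNB1, lamin B1 of the nuclear envelope, had the largest fall of the genes tested, from 22.3, 22.5 and 7.23 FPKM to 2.83, 3.62 and 2.71 FPKM (difference -2.03, SE 0.41, adjusted p = 0.00628). Untreated cells had 3.65, 3.43 and 8.29 FPKM of LMNB1, and the vesicle difference from them did not pass (-0.52, adjusted p = 0.385). Residual medium stood 1.52 above untreated cells (adjusted p = 0.0132).

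CDK1 and MKI67, a mitotic kinase and the Ki-67 proliferation antigen, did not pass the test with all libraries. CDK1 had 8.19, 13.8 and 11.8 FPKM against 52.7, 58.3 and 13.4 FPKM (difference -1.57, adjusted p = 0.0526), and -2.23 without residual medium replicate 3 (adjusted p = 0.00256). MKI67 had 2.86, 4.03 and 3.9985 FPKM against 20.6, 20.1 and 3.91 FPKM, so residual medium replicate 3 lay inside the vesicle range. PCNA, the sliding clamp of DNA polymerase, had 43.8, 43.3 and 40.4 FPKM against 96.2, 91.2 and 51.4 FPKM (difference -0.84, adjusted p = 0.0116), and MCM5 and MCM6 of the replicative helicase fell by 1.48 and 0.85. PCNA and MCM5 were lost without residual medium replicate 1 or 2. Of 11 lamin and HMG genes 5 fell and 0 rose, 9 without residual medium replicate 3, 3 without PANC-1 vesicle replicate 1 or 3 and 2 without residual medium replicate 1 or 2.

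Against untreated cells, 0 of the 36 mitosis genes and 0 of the 33 replication genes differed in limma, with medians of 0.31 and 0.19, and 0 and 2 of them had an unadjusted p under 0.05. Residual medium against untreated cells had 36 and 30 of them higher. In the single libraries, the median mitosis gene stood 1.75 and 1.82 above its mean over the 12 HPNE libraries in residual medium replicates 1 and 2 and at -0.03 in replicate 3. It stood at -0.30, 0.00 and -0.13 in the vesicle libraries and at -0.74, -0.75 and 0.22 in the untreated libraries. TERT, whose reads can come from the gene or from the transgene of the line, moved with this group: it had 119, 150 and 159 FPKM with vesicles, 443, 424 and 202 FPKM with residual medium and 114, 124 and 200 FPKM in untreated cells (difference -1.24, adjusted p = 0.0129, lost without residual medium replicate 1 or 2).

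The cell cycle homology element, a promoter element through which the DREAM and MuvB complexes act on mitotic genes, was looked for in the same windows by the letters TTTGAA on both strands. It occurs in 15.4% of all 27305 windows, in 9.64% of the 8251 windows of genes tested, and in 23 of the 59 windows (39.0%) found for the 69 mitosis and replication genes. For the called members of these lists it was 8 of 27 windows (29.6%). Upstream stretches are shown for genes that fell and had a match there; capitals mark the first match, and TTCAAA is the element on the opposite strand.
CDC20: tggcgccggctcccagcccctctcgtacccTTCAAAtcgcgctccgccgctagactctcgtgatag
ANLN: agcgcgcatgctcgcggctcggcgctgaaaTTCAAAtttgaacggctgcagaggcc
DLGAP5: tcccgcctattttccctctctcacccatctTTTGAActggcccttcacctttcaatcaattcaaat
PLK1: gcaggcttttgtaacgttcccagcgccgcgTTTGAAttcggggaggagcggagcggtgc
They lie at chr1:43358773-43358838 (plus strand), chr7:36389806-36389861 (plus), chr14:55191688-55191753 (minus) and chr16:23678830-23678888 (plus) of GRCh38.p14, with matches that begin 178, 26, 138 and 29 bases upstream of the start.

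**Figure D3:**
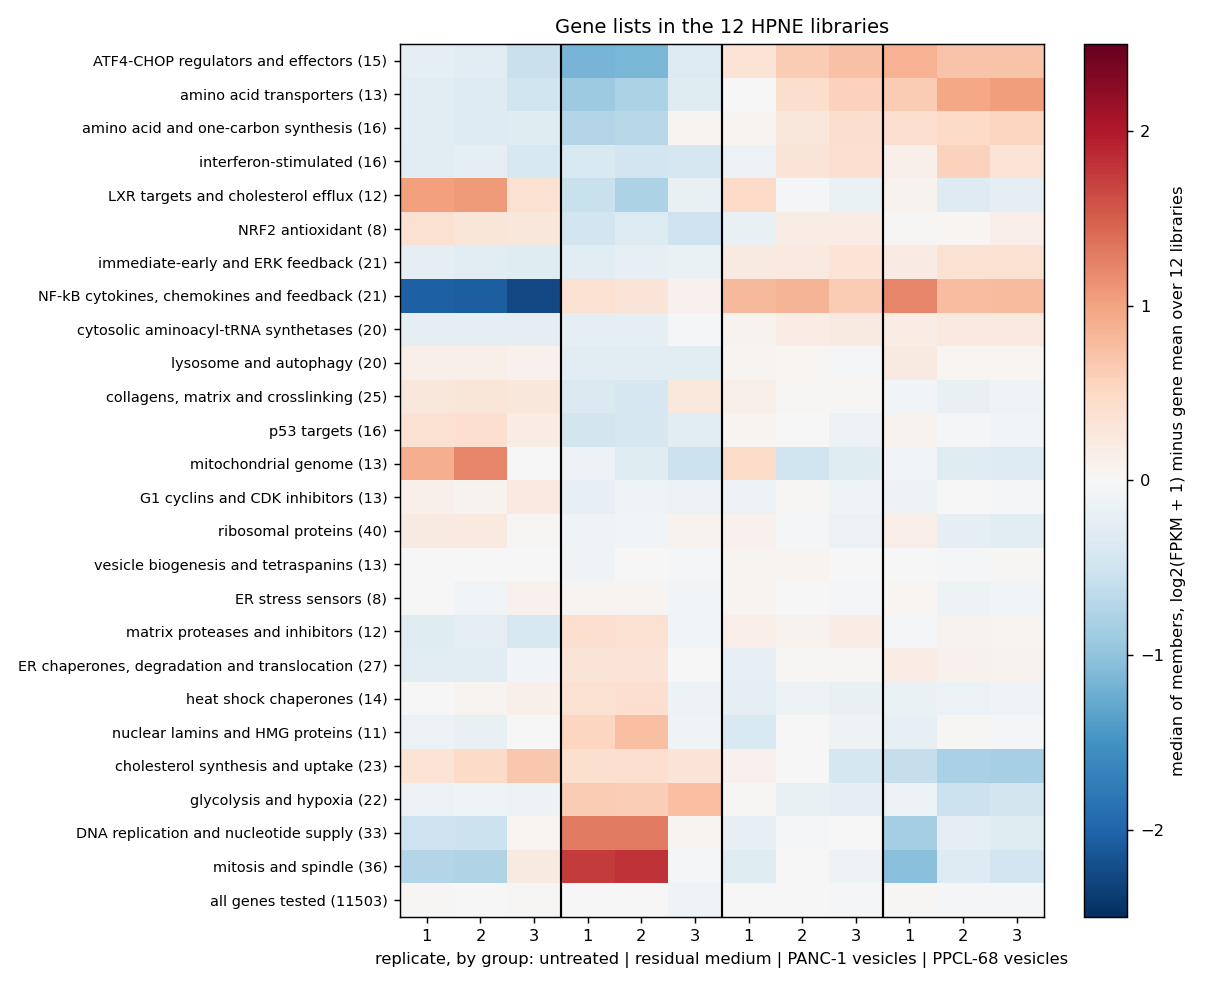
Median over the tested members (number in parentheses) of each gene list in each of the 12 HPNE libraries, as log2(FPKM + 1) minus the gene's mean over those libraries; red is above and blue below that mean. Residual medium replicates 1 and 2 stand out for mitosis (1.75 and 1.82) and replication (1.29 and 1.30), where replicate 3 is at -0.03 and 0.06, while all 3 stand together for glycolysis (0.63, 0.61 and 0.76).

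Glycolysis and hypoxia genes were lower with PANC-1 vesicles in a way that did not turn on residual medium replicate 3. Of 22 tested genes 17 fell and 0 rose (median -0.70). The falls numbered 16 or 17 whichever of the 6 libraries was left out, 16 with only the 6 libraries in the fit and 17 with size factors, voom or the replicate block. PGK1 (chrX:77320685-77384793, hg19), phosphoglycerate kinase, had 96.6, 89.2 and 84.0 FPKM with vesicles, 204, 199 and 218 FPKM with residual medium and 77.9, 75.2 and 78.8 FPKM in untreated cells. The difference was -1.20 (SE 0.09, adjusted p = 4.59e-05) against residual medium and 0.21 against untreated cells (adjusted p = 0.101). Vesicle and untreated libraries were thus near each other, and the residual medium libraries stood above both.

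PGAM1, TPI1 and ENO1, which catalyse other steps of glycolysis, fell by 1.10, 0.99 and 1.00, and LDHA, lactate dehydrogenase, by 1.41. ENO2, the second enolase, had 25.3, 13.5 and 11.2 FPKM against 54.0, 57.6 and 52.5 FPKM (difference -1.74, adjusted p = 0.00167). AK4, a mitochondrial adenylate kinase, had 6.49, 2.62 and 2.09 FPKM against 12.3, 12.3 and 15.3 FPKM (difference -1.70, adjusted p = 0.00231). In both genes PANC-1 vesicle replicate 1 was the nearest to residual medium, and residual medium replicate 3 was with its group. Against untreated cells 2 of the 22 genes were higher and 0 lower, and residual medium against untreated cells had 18 higher.

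The core of the hypoxia response element, ACGTG, was searched in the same way. It occurs in 21.6% of all windows, in 27.8% of those of genes tested, and in 9 of the 20 windows (45%) found for the 22 glycolysis and hypoxia genes. For called members of that list it was 7 of 17 windows (41.2%), and for the mitosis and replication genes 21 of 59 (35.6%). The stretches shown are from genes that fell and had a match upstream of the start. Capitals mark the first match, and CACGT is the element on the opposite strand.
LDHA: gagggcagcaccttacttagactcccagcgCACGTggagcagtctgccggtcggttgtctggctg
BNIP3: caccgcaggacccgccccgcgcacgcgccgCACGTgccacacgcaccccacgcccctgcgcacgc
PGK1: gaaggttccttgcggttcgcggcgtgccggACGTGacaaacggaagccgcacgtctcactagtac
P4HA1: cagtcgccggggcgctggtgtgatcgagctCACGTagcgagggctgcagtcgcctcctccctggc
They lie at chr11:18394348-18394412 (plus strand), chr10:131982023-131982087 (minus), chrX:78104016-78104080 (plus) and chr10:73096918-73096982 (minus) of GRCh38.p14, 185, 134, 202 and 86 bases upstream of the start.

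**Figure D4:**
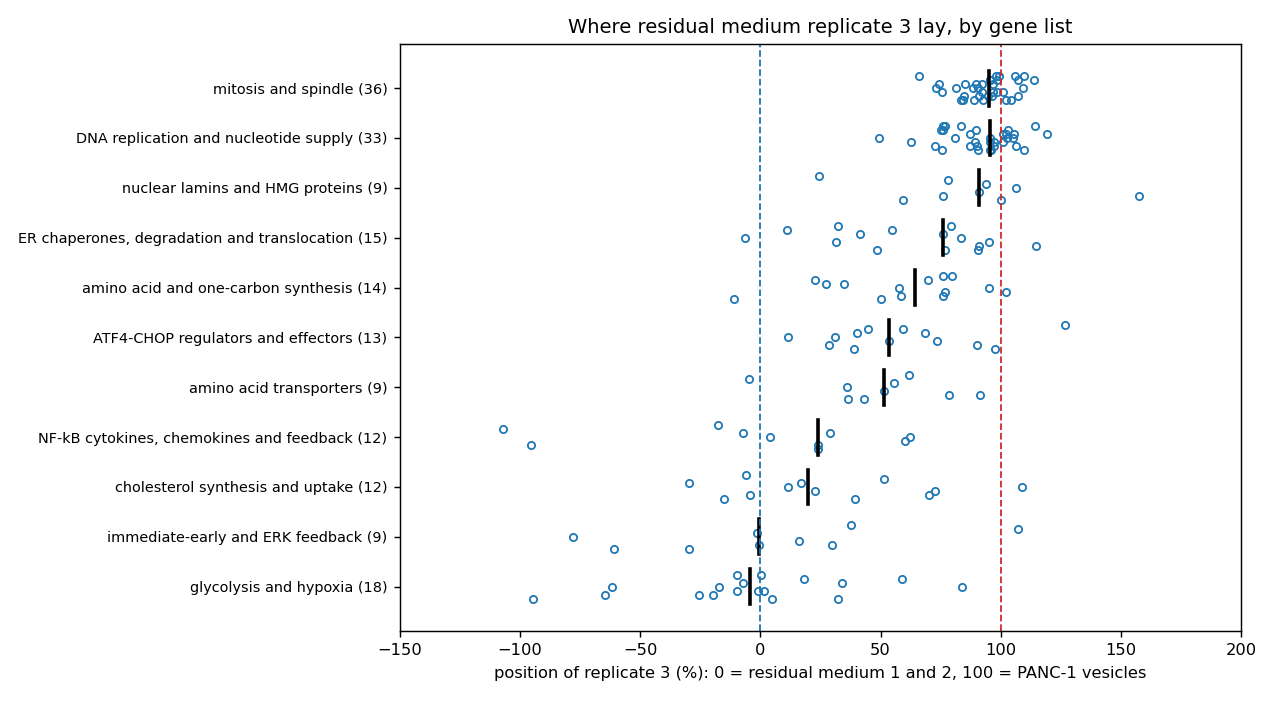
Position of residual medium replicate 3 for list members called without it (number in parentheses); 0% is the mean of residual medium replicates 1 and 2, 100% is the mean of the PANC-1 vesicle libraries, circles are genes and black bars are medians. The medians are 95.2% for mitosis and 95.4% for replication, and -4.26% for glycolysis and hypoxia; 2 NF-kB genes lie outside the axis.

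Residual medium replicate 3 was placed between its group and the vesicle group on the log2 scale, with 0% at the mean of residual medium replicates 1 and 2 and 100% at the vesicle mean. Over the 4443 genes called without it, its median position was 60.4%, it lay toward the vesicle group for 3860 (86.9%), and it lay past midway for 2594 (58.4%). These genes were chosen because replicates 1 and 2 differed from the vesicle group, and the position is read on that axis only. Where untreated libraries lie on the vesicle side, as for mitosis, it cannot tell a move toward vesicle libraries from a move toward untreated ones. The position differed between gene groups. It was 95.2% for the mitosis list, 95.4% for replication, 91.0% for lamins and HMG proteins, 76.0% for ER chaperones and 64.2% for amino acid synthesis. It was 53.5% for the ATF4 and CHOP list, 19.8% for cholesterol synthesis, -0.738% for immediate-early genes and -4.26% for glycolysis. These are medians over list members called without the library. A depth of 30410377 reads made it the shallowest of the 6, and what its position reflects was not tested.

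The library moved single calls in both directions. Among genes called only without it, TMEM119 had 56.4, 26.8 and 21.0 FPKM with vesicles and 4.89, 3.35 and 29.1 FPKM with residual medium, and FBXO32, a ubiquitin ligase subunit of muscle atrophy, had 14.0, 5.92 and 5.88 FPKM against 0.784, 0.900 and 9.94 FPKM. IL24, a cytokine of the IL-10 family, had 28.9, 37.2 and 41.7 FPKM against 7.66, 6.51 and 39.8 FPKM. In all 3 genes replicate 3 lay inside the vesicle range. Among genes called only with it, SAA1, an acute phase protein, had 18.2, 17.5 and 14.4 FPKM against 31.3, 29.2 and 89.0 FPKM, and MIR210HG, the host transcript of a hypoxia-induced miRNA, had 3.99, 0.996 and 0.852 FPKM against 4.11, 4.95 and 10.5 FPKM. Their adjusted p-values were 0.0404 and 0.0377 with the library and 0.075 and 0.0828 without it.

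Sterol genes moved in opposite ways against residual medium. Of 23 genes of cholesterol synthesis and uptake 12 fell and 0 rose (median -0.58), 6 without residual medium replicate 1 or 2, and 4 with only the 6 libraries in the fit. HMGCS1, an early enzyme of the pathway, had 24.3, 9.70 and 5.55 FPKM with vesicles, 28.6, 28.2 and 37.3 FPKM with residual medium and 44.8, 46.4 and 45.7 FPKM in untreated cells. The groups did not overlap (difference -1.41, adjusted p = 0.0178). It did not pass without PANC-1 vesicle replicate 2, without the level filter or with only the 6 libraries, and its largest adjusted p over the alternatives was 0.0798. NSDHL, a later enzyme, had 13.3, 11.98 and 10.5 FPKM against 20.8, 21.0 and 18.4 FPKM (difference -0.71, adjusted p = 0.00122). Against untreated cells 14 of the 23 were lower and 0 higher.

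Of 12 liver X receptor (LXR) targets and efflux genes, which respond to oxysterols, 4 rose and 0 fell (median 0.62). The direction was not the same against untreated cells, where 2 of the 12 were higher and 4 lower (median -0.52). Residual medium had 0 of them higher than untreated cells and 9 lower. ABCA1, the cholesterol exporter, had 47.4, 24.9 and 20.3 FPKM with vesicles, 2.30, 2.72 and 10.3 FPKM with residual medium and 56.6, 56.9 and 28.9 FPKM in untreated cells. It was higher than with residual medium (2.53, SE 0.48, adjusted p = 0.00488) and did not pass against untreated cells (-0.63, adjusted p = 0.362). APOE rose by 0.68 against residual medium (adjusted p = 0.0126, lost without residual medium replicate 2) and was lower than in untreated cells (-0.99, adjusted p = 0.00229).

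Inflammatory genes differed from residual medium in part. Of 21 NF-kB cytokines, chemokines and feedback genes 9 rose and 1 fell (median 0.46), with 3 falls without residual medium replicate 3 and 6 rises without PANC-1 vesicle replicate 2, and all 21 were higher than in untreated cells (median 2.77), while residual medium had 19 of them higher than untreated cells. IL8, a neutrophil chemokine, had 1109, 1658 and 1461.5 FPKM with vesicles, 1799, 1818 and 859 FPKM with residual medium and 2.31, 2.64 and 4.70 FPKM in untreated cells. Vesicle and residual medium libraries overlapped (difference -0.02, adjusted p = 0.963), and both lay far above untreated cells. PTGS2, inducible cyclooxygenase, had 8.48, 9.09 and 8.5045 FPKM with vesicles, 2.04, 1.95 and 2.96 FPKM with residual medium and 0.379 to 0.632 FPKM in untreated cells, an order without overlap (difference 1.56, adjusted p = 0.000204). ICAM1, an adhesion molecule, rose by 0.91.

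CXCL5, another neutrophil chemokine, was the member that fell with all libraries, from 183, 163 and 61.5 FPKM with residual medium to 27.3, 38.1 and 34.2 FPKM with vesicles (difference -1.86, SE 0.32, adjusted p = 0.00289), with 0.553 to 0.967 FPKM in untreated cells. PTX3, a secreted pattern recognition protein, had 446, 799 and 678 FPKM with vesicles, 107, 103 and 115 FPKM with residual medium and 82.8 to 101 FPKM in untreated cells. Here the vesicle libraries stood far above both controls, and residual medium lay just above untreated cells (differences 2.52 and 2.73, adjusted p = 0.000204 and 7.56e-05). IL7R, the interleukin-7 receptor chain, fell from 18.7, 17.9 and 10.2 FPKM to 1.89, 4.66 and 4.44 FPKM. Untreated cells had 0.489, 0.724 and 2.36 FPKM of IL7R. Residual medium stood 2.97 above them (adjusted p = 0.000276), and the vesicle difference of 1.12 did not pass (adjusted p = 0.0533). Of 16 interferon-stimulated genes 7 rose and 0 fell (median 0.64). The rises numbered 12 without PANC-1 vesicle replicate 1 and 6 without residual medium replicate 3. They numbered 5 without PANC-1 vesicle replicate 2 or 3 or residual medium replicate 1 or 2. Against untreated cells 4 of the 16 were higher and 2 lower (median 0.44), and residual medium had 0 higher and 5 lower. XAF1, IFIT2, IFIT3 and DDX60 rose by 1.53, 1.57, 0.93 and 0.50 against residual medium.

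Of 21 immediate-early and ERK feedback genes 8 rose and 0 fell (median 0.47). EGR2, an immediate-early transcription factor, had 14.7, 6.10 and 5.77 FPKM with vesicles, 0.298, 0.305 and 1.32 FPKM with residual medium and 2.75 to 5.33 FPKM in untreated cells (difference 2.53, SE 0.33, adjusted p = 0.000756). SPRY2, an ERK pathway inhibitor, had 31.7 to 33.5 FPKM against 18.0 to 18.9 FPKM and 14.2 to 16.1 FPKM in untreated cells (difference 0.79, adjusted p = 0.0007). Of 16 p53 targets 5 rose and 0 fell (9 without residual medium replicate 3, and 3 without residual medium replicate 1 or 2 or PANC-1 vesicle replicate 1 or 2). The direction was not the same against untreated cells, where 2 of the 16 were higher and 6 lower (median -0.33). Residual medium had 0 of them higher than untreated cells and 11 lower. GADD45A, a stress sensor, had 113, 209 and 241 FPKM against 40.8, 46.0 and 45.4 FPKM and 41.6 to 42.7 FPKM in untreated cells, whereas CDKN1A, the p21 inhibitor of cyclin-dependent kinases, had 229, 238 and 220 FPKM against 205, 216 and 247 FPKM and did not differ in the test (0.04, adjusted p = 0.779).

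Of 13 G1 cyclins and inhibitors, CDKN2B, which encodes p15, rose by 1.21 and CDKN2C, which encodes p18, fell by 1.78, and with CDKN2D (-0.63) these were the 3 called, a share near the 24.2% of all genes. Without residual medium replicate 3 the list had 2 rises and 5 falls. CDKN2D did not pass when any of the 6 libraries but residual medium replicate 3 was left out. Lysosome and autophagy genes included 8 of 20 that rose and 0 that fell. Against untreated cells 2 of the 20 were higher and 2 lower, and residual medium had 1 higher and 13 lower. SQSTM1, the autophagy receptor p62, had 232, 232 and 231 FPKM with vesicles, 103, 106 and 120 FPKM with residual medium and 164 to 199 FPKM in untreated cells (difference 1.08, adjusted p = 0.0002). Of 8 NRF2 antioxidant genes 4 rose (2 without PANC-1 vesicle replicate 2 or 3 or residual medium replicate 1). Against untreated cells 0 of the 8 were higher and 2 lower, and residual medium had 0 higher and 6 lower. Of 13 vesicle biogenesis genes 4 rose and 0 fell (median -0.03), beside 13.9% and 10.3% of all genes. Among them RAB27B, a GTPase of vesicle secretion, rose by 1.46. The count of rises was 2 without PANC-1 vesicle replicate 3 or residual medium replicate 1 or 2. Against untreated cells 2 of the 13 were higher and 3 lower, and residual medium had 2 higher and 5 lower.

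Of 25 collagen and matrix genes 5 rose and 2 fell, near the 24.2% of all genes that were called, with 11 rises without residual medium replicate 3, 1 without residual medium replicate 1 or 2, and 3 and 2 without PANC-1 vesicle replicates 2 and 3. POSTN, periostin, had 168, 89.4 and 85.7 FPKM with vesicles against 41.5, 48.4 and 41.0 FPKM, with 99.9 to 224 FPKM in untreated cells (difference 1.30, adjusted p = 0.0127). THBS1, thrombospondin, had 138, 155 and 174 FPKM against 294, 294 and 313 FPKM (difference -0.95, adjusted p = 0.0117). COL1A1 overlapped between the groups, with 3439, 2363 and 2507 FPKM against 1896, 1876 and 3498 FPKM (0.24, adjusted p = 0.498, and 0.53 without residual medium replicate 3, adjusted p = 0.0449). Of 12 matrix proteases and inhibitors 3 rose and 2 fell, and these counts were lower for 5 of the 6 libraries left out, all but residual medium replicate 3.

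Among protein-coding genes whose groups did not overlap, the largest rise belonged to UNC5B (chr10:72972327-73062621, hg19), a netrin receptor that can signal cell death without its ligand. ADH1B, an alcohol dehydrogenase singled out after its value was seen, had a larger difference of 2.89 (adjusted p = 0.0453) with groups that overlapped. UNC5B had 59.9, 64.0 and 68.4 FPKM with vesicles, 4.30, 5.02 and 23.0 FPKM with residual medium, and 76.5, 72.4 and 53.3 FPKM in untreated cells. Vesicle and untreated libraries overlapped, and all 3 residual medium libraries lay below both. The difference was 2.83 (SE 0.43, adjusted p = 0.00166) against residual medium, 3.52 without its replicate 3 (adjusted p = 1.47e-06) and -0.06 against untreated cells (adjusted p = 0.936). NTN4 and NEO1 rose by 0.89 and 0.46, the latter only with all libraries or without residual medium replicate 3 among the single libraries left out, and the ligand NTN1 was at most 0.0361 FPKM in the 9 libraries of the 3 groups. KLF4, a transcription factor, had 25.2, 17.3 and 17.0 FPKM against 2.29, 1.76 and 5.84 FPKM (2.37, adjusted p = 0.000701) and 11.3 to 19.9 FPKM in untreated cells. ANGPTL2, a secreted angiopoietin-like protein, had 19.2, 17.0 and 11.8 FPKM against 2.45, 2.15 and 2.85 FPKM (2.27, adjusted p = 4.07e-05) and 31.2 to 38.9 FPKM in untreated cells, so the vesicle libraries lay between the controls.

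Mitochondrial and ribosomal protein transcripts were not called. Of 13 genes of the mitochondrial genome and 40 ribosomal protein genes, 0 and 0 passed the test in limma, also without residual medium replicate 3, and their medians were 0.18 and -0.00116. The count was also 0 by voom on the recovered reads, and 0 of them had an unadjusted p under 0.05 in limma.

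The same contrast was made in HPDE and the difference between the lines tested in limma over 10483 genes. A total of 1908 (18.2%) differed, 1121 (10.7%) with a more positive and 787 (7.51%) with a more negative difference in HPNE. The ATF4 and CHOP list had 0 of 14 members more positive and 1 more negative in HPNE, and 12 of 14 were higher and 1 lower with vesicles in HPDE, where 45.5% of all genes differed, 21.3% higher and 24.2% lower. Of the 22 glycolysis and hypoxia genes 13 were more negative in HPNE and 0 more positive. For PGK1 the difference was -1.20 in HPNE and -0.45 in HPDE, and the difference between them was -0.75 (adjusted p = 1.52e-05). For TRIB3 it was 2.70 and 1.91, and the difference of 0.79 did not pass (adjusted p = 0.252). Without residual medium replicate 3 of HPNE, 3514 genes differed between the lines, 1530 more positive and 1984 more negative.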

How the data were processed

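The submitters deposited 1 table per library with FPKM values for 48162 genes, hg19 coordinates, gene length and type, per the file headers. The submitters' processing notes name CASAVA, STAR, HTSeq, DESeq2 and hg19, without their roles or versions. FPKM values were whole multiples of 1 read, within 0.01 read, for 100% of values, which gave the reads per library and the input to voom, the only count-based alternative. Groups came from sample titles. Differences are on the log2 scale of the deposited FPKM plus a pseudocount of 1, fitted with lmFit and eBayes (trend) in limma 3.58.1 (R 4.3.3) over the 12 HPNE libraries (24 for the line difference), with two-sided tests and Benjamini-Hochberg adjustment over all genes tested. In a test on data simulated for this comparison with 11503 genes, 86% of 200 genes changed 2-fold were recovered and 6 unchanged genes were called. With no change 0 were called. Each gene was simulated independently in each library, so no simulated library lay apart over many genes as residual medium replicate 3 does. The simulation therefore cannot show the error rate of a fit that holds such a library. Named genes are the 12 largest rises and 12 largest falls among called protein-coding genes without group overlap, up to 4 members per gene list with the smallest adjusted p plus reference members, and the 6 largest changes called only without, or only with, residual medium replicate 3; others are list members, and 1 named gene is not reported here. The members and lists were chosen with earlier results of these data known. The library kit kept no strand, so overlapping genes can share reads. Promoter windows are from RefSeq (GRCh38.p14), not the files' build.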

Additional observations from a re-analysis of the deposited data

Results flagged for a closer look

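The PANC-1 vesicle effect against residual medium was tested for a difference between HPNE and HPDE by an interaction contrast in limma over all genes. Of 33 leading or reference genes 30 were expressed in both lines and 10 passed, beside 18.2% of all genes tested. The leading genes were chosen for large differences in HPNE, which favours a larger effect in that line. No conclusion is drawn from the count or from which line had the larger value. UNC5B differed by 2.67 (adjusted p = 0.000561), with 2.83 in HPNE and 0.16 in HPDE, where it had 1.01 to 1.204 FPKM with vesicles and 0.856 to 0.939 FPKM with residual medium. EGR2 differed by 2.16, PTX3 by 2.04, FAM43A by 1.72 and KLF4 by 1.497, all with the larger rise in HPNE (adjusted p = 0.000424, 0.000151, 0.00104 and 0.00382). In HPDE the means with vesicles and residual medium were 2.49 and 1.70 FPKM for EGR2 and 3.75 and 2.48 FPKM for PTX3. They were 3.00 and 1.80 FPKM for FAM43A and 13.2 and 6.73 FPKM for KLF4. The pseudocount of 1 shrinks log2 differences at such low levels, most for UNC5B, EGR2, PTX3 and FAM43A. IL7R (-1.99), AK4 (-1.55) and ENO2 (-1.2005) had the more negative value in HPNE (adjusted p = 0.00185, 0.0013 and 0.00758), with 0.14, -0.15 and -0.54 in HPDE. CDKN2C differed by -0.83 (adjusted p = 0.0435); this was lost with 10 of the 12 libraries left out one at a time, all but residual medium replicate 3 and PANC-1 vesicle replicate 1 of HPNE, with a largest adjusted p of 0.126. CDKN1A differed by -0.59 (adjusted p = 0.000727), with 0.04 in HPNE and a rise of 0.64 in HPDE.

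Another 4 of the genes reported here differed between the lines by at least 1.5. DUSP4, a phosphatase of the ERK pathway, differed by 1.65, rising by 1.09 in HPNE and falling by 0.57 in HPDE. RAB27B differed by 1.64 and TIMP3, a metalloproteinase inhibitor, by 1.51. SAA1 differed by -1.77 (adjusted p = 0.0102), a value that was -1.26 when HPNE residual medium replicate 3 was omitted. Apart from CDKN2C, these genes passed with each of the 12 libraries left out.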

How the results depend on the processing

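The count of genes that differed with PANC-1 vesicles against residual medium was 2784. It was 1344 to 4443 with single libraries left out, 1436 with only the 6 libraries in the fit, 6084 with arrayWeights (where residual medium replicate 3 had a weight of 0.138), 2810 with a pseudocount of 0.1, 1882 of 28966 without a level filter and 2924 by voom on recovered reads. The count at 1 or more (322) was 518, 573 and 647 with the pseudocount of 0.1, voom and arrayWeights, 186 to 679 with single libraries left out, and 638 without residual medium replicate 3 and PANC-1 vesicle replicate 1. Against untreated cells the count of genes that differed (2430) was 6177 with arrayWeights and 1046 to 3346 with single libraries left out. It was 1215 and 1046 without PANC-1 vesicle replicates 2 and 3, and 1198 and 1087 without untreated replicates 1 and 2. Without residual medium replicate 3 and PANC-1 vesicle replicate 1 it was 4190, and size factors gave 1509 higher and 1079 lower. The line difference (1908) was 6398 with arrayWeights and 1390 to 3514 with single libraries left out. Without residual medium replicate 3 and PANC-1 vesicle replicate 1 of HPNE it was 3317, and size factors gave 904 higher and 1134 lower. Over all listed genes 200 were called (54% higher), 125 with no filter, 115 with only the 6 libraries, 334 with arrayWeights, 113 to 285 with single libraries left out, and 215 with size factors (45.1% higher). Leaving out residual medium replicate 3 and PANC-1 vesicle replicate 1 gave 287 listed genes. The arrayWeights fit stopped before its convergence tolerance.

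Of 118 named genes that were called, 79 passed under all 14 alternatives, and none changed sign. Among named genes that did not pass, HSPA5 (0.04) turned to -0.027 with size factors, and ranged from -0.074 to 0.18 with single libraries left out, below 0 without PANC-1 vesicle replicate 2 or 3 or residual medium replicate 3. CDKN1A (0.04) turned to -0.0195 with size factors, and ranged from -0.013 to 0.12 with single libraries left out, below 0 without residual medium replicate 1. IL8 (-0.02) ranged from -0.38 to 0.16 with single libraries left out, above 0 without PANC-1 vesicle replicate 1 or residual medium replicate 1 or 2. The cause was not tested.

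With the replicate number as a block, 2579 genes differed (294 by at least 1), 2462 against untreated cells, 1902 between the lines and 179 of the listed genes. Deviations of same-numbered vesicle and residual medium libraries from their group means had correlations across genes of -0.317, 0.335 and -0.284. With untreated libraries they were 0.480, -0.443 and 0.490. Each group has 1 library apart, which weighs on these values, so they cannot show whether same-numbered samples are paired. Of the named genes, 8 passed without the block and not with it.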

Other observations

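Transcript classes outside the protein-coding genes were called mostly in the upward direction with PANC-1 vesicles. Of 207 antisense genes 28 were higher and 8 lower, of 213 lincRNA genes 31 and 11, of 160 processed transcripts 32 and 5, and of 311 pseudogenes 52 and 12, beside 1452 and 1149 of 10558 protein-coding genes. The shares called were 17.4, 19.7, 23.1 and 20.6%, below the 24.6% of protein-coding genes. With size factors the balance over all genes turned to 1341 higher and 1849 lower, and the classes were not counted in that setting. The kit kept no strand, so reads of an antisense gene and its partner cannot be told apart, and pseudogene reads may come from their parent genes. Without residual medium replicate 3 the antisense genes had 39 higher and 11 lower and the protein-coding genes 1798 and 2396.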
